A study of Mus musculus with 24 samples.

Results

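The genes described here are 45 mouse genes whose products act in G2 and mitosis. They were chosen by name from what they are known to do, with earlier results of these data known. All 45 were among the 22529 genes of the deposited table, and all 45 were among the 17518 genes with enough reads to be tested. They fall into 9 roles: cyclins with their kinase and phosphatases, mitotic kinases, the spindle checkpoint, anaphase, the chromosomal passenger complex, centromere and kinetochore, spindle and kinesins, cytokinesis, and chromosome structure. RNA was sequenced from tissue of the cortical ventricular zone of C57BL/6 mouse embryos, wild type (WT) or carrying a conditional knockout (cKO) of Prdm16, a zinc-finger regulator of transcription. Each genotype was sampled on 4 embryonic days (E11.5 and E13.5, then E15.5 and E17.5), with 3 libraries lettered A, B and C per group, 24 in all. The protocol speaks of 3 WT and cKO embryo pairs, without saying that a letter marks a pair or that each library is 1 embryo. The sources used here do not name the Cre driver, its promoter or the deleted exons. The p-values rest on the spread among libraries, which may be technical in part.

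A dividing cell enters mitosis when cyclin B binds the kinase Cdk1 and the Cdc25 phosphatases remove its inhibitory phosphates. Plk1 and the Aurora kinases then build the spindle, the checkpoint proteins hold anaphase back until every kinetochore is attached, and Cdc20 turns on the anaphase-promoting complex, which destroys securin and cyclin B. Transcripts of these genes peak together late in the cell cycle, so in developing cortex they mark the radial glia and intermediate progenitors that divide, and they are low in the neurons that have left the cycle.

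Values are normalized reads per gene and library unless another scale is named, and every gene was fitted with limma on log2(value + 1) over all libraries. A gene was called when its p, adjusted over all 17518 genes by the Benjamini-Hochberg method, was under 0.05. Recovered reads were 25639836 to 38879931 per library. Prdm16 itself was lower in cKO at E11.5 (log2 fold change -1.06 ± 0.14 SE, limma adjusted p = 8.1e-05) and E13.5, did not pass at E15.5 (-0.18 ± 0.14), and was higher in the E17.5 libraries labelled cKO, at 2983, 3594 and 3866 reads against 2070, 2000 and 2052 in those labelled WT. The E17.5 groups are therefore named by their labels throughout, and every E17.5 direction rests on labels that this gene goes against. All 9 radial glia markers used here were also higher under the cKO label at E17.5. Their part in the Prdm16 reads was not tested. In 5 of the 8 groups (both genotypes at E11.5 and E15.5, and cKO at E13.5) library C was close to a weighted sum of the other libraries, A and B. The columns of WT libraries from E13.5 and from E17.5 also carry a 2 in their names that the labels do not explain, and this mark and genotype cannot be told apart on those days.

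Promoter sequences from RefSeq (GRCm38.p6), which run from 250 bases before to 50 bases after a transcript's start, were available for 38 of the 45 genes as 41 promoters. They were searched for 2 short motifs known from promoters of mitotic genes, the cell cycle homology region (CHR, TTTGAA or TTCGAA) and the CCAAT box (CCAAT), on both strands. Matches of the 2 motifs were counted separately whether or not they overlapped, and the palindrome TTCGAA was counted once per position. A match on the other strand reads ATTGG or TTCAAA. A CHR match was present in 32 of the 41 promoters (78.0%), against 19.2% of all 32851 promoters in the table. CCAAT was present in 78.0% against 37.4%, and both motifs in 68.3% against 7.52%. By gene, 29 had a CHR match, 29 a CCAAT match, 25 both and 5 neither. The stretches below cover 130 bases before to 20 bases after the start of 5 members, with the matched letters in capitals. They are shown because Ccnb1, Ccnb2, Cdk1 and Cdc20 lay above the members' median difference between the E17.5 labels, where Bub3 had the smallest difference.
Ccnb1, chr13:100786467-100786616, minus strand: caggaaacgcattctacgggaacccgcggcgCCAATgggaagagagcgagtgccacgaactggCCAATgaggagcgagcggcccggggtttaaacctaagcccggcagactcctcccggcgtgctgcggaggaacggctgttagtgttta
Ccnb2, chr9:70421535-70421684, minus strand: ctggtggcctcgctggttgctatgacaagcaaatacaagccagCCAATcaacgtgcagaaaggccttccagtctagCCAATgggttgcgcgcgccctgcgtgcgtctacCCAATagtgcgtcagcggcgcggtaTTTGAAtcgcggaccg
Cdk1, chr10:69352893-69353042, minus strand: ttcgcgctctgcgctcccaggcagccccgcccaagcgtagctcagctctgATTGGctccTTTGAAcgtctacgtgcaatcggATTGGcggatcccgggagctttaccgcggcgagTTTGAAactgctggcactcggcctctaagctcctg
Cdc20, chr4:118437324-118437473, minus strand: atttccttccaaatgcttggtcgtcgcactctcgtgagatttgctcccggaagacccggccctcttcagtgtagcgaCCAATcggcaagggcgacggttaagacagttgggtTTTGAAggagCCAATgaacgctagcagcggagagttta
Bub3, chr7:131560240-131560389, plus strand: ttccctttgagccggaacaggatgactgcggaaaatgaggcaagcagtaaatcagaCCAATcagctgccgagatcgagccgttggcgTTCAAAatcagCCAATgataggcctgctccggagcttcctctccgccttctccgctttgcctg
Ccnb2 held 1 CHR and 3 CCAAT matches in this stretch, Cdk1 held 2 of each, and Cdc20 held 1 CHR and 2 CCAAT matches. The Ccnb1 stretch held 2 CCAAT matches and no CHR match. The Bub3 stretch shown held 1 CHR and 2 CCAAT matches. The table holds another Bub3 start, whose stretch (chr7:131560364-131560513, plus strand) held 0 matches of either motif. Its full promoter held 1 CHR and 2 CCAAT matches, all more than 130 bases before that start. Of members not shown, Plk1, also above that median, held 0 CHR matches and 1 CCAAT match in the same stretch. The Plk1 promoter did hold 1 CHR match, past the end of that stretch. Cdc25b, below the median, held 1 match of each motif in the same stretch. Any link between matches and the size of the difference was not tested.

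In the WT cortex the whole group was abundant at E11.5 and E13.5 and then fell. Summed over the 45 genes, it took 0.917% ± 0.0336 (SD, n = 3) of all normalized reads at E11.5 and 0.950% ± 0.0920 at E13.5. The share was 0.349% ± 0.0331 by E15.5 and 0.188% ± 0.0138 by E17.5. The cKO libraries took 0.888% ± 0.0777, 0.906% ± 0.0402 and 0.310% ± 0.00258 on the first 3 days. Those labelled cKO at E17.5 took 0.445% ± 0.0339, above the E15.5 share of either genotype. Per kilobase of exon, the most abundant members in WT at E11.5 were Cdc20 (4410 normalized reads per kb), Ube2c (3386) and Cks2 (3329), and the least abundant was Anln (276).

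**Figure D1:**
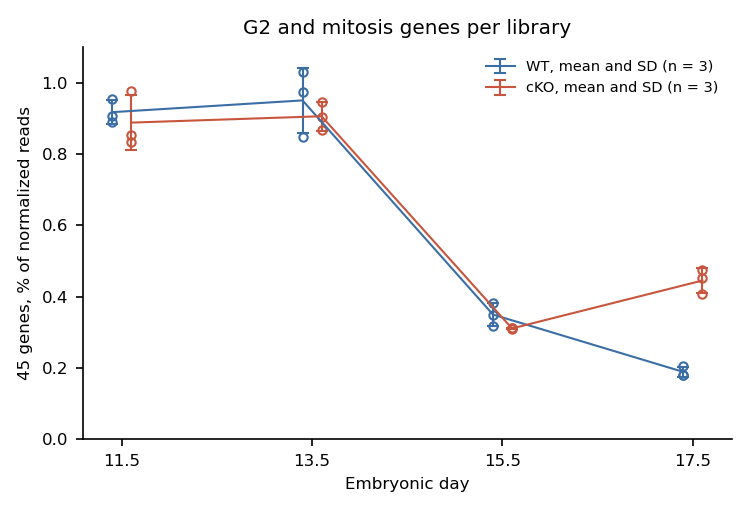
Sum of the 45 G2 and mitosis genes as a percentage of all normalized reads (y axis) by embryonic day (x axis), with 1 open circle per library and lines through the group means with SD bars (n = 3). The WT line (blue) falls to 0.188% at E17.5, whereas the libraries labelled cKO (red) stand at 0.445% on that day.

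From E13.5 to E15.5 all 45 members fell in WT, where 22.8% of all genes tested were called lower. Their median log2 fold change was -1.46, against 0.00 over all genes. Mki67, the Ki-67 protein that coats mitotic chromosomes, fell from 33146, 36935 and 29238 to 7777, 10380 and 8788 (-1.89 ± 0.25, limma adjusted p = 3.1e-06). Plk1, the kinase that drives centrosome maturation, fell from 4700, 4632 and 3918 to 1209, 1385 and 1350 (-1.75 ± 0.13). These groups did not overlap for any of the 45 members, and 30.7% of all genes tested fell without overlap. Library C at E15.5 was close to a sum of A and B, so C may not be a separate sample in this count. Cenpe, a kinetochore motor, fell by 1.89 on the log2 scale and Cenpf, a kinetochore protein, by 1.74. The smallest declines were those of Bub3, a checkpoint protein that also has work outside mitosis, at -0.39 ± 0.10 (limma adjusted p = 0.0032), and of Pttg1, at -0.59 ± 0.24. Without the 5 C libraries 44 members were called, where 16.8% of all genes were called lower, and Pttg1 was not. Over the same step in WT 7 of 9 radial glia and 4 of 5 intermediate progenitor markers fell (1 of each rose). So did 3 of 4 endothelium and 3 of 6 red blood cell markers. By contrast 9 of 11 neuron, 5 of 5 microglia and 3 of 3 epidermis markers rose. The summed epidermis reads at E15.5 were 4.88 in library A, 9422 in B and 4623 in C. The part of these markers in the members' decline was not tested.

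The same step in cKO also lowered 45 of 45 members, where 29.9% of all genes were called lower, with a median of -1.61. Ube2c, the ubiquitin-conjugating enzyme of the anaphase-promoting complex, went from 8180, 5355 and 6400 to 1443, 1757 and 1534 (-2.06 ± 0.15, limma adjusted p = 7.6e-10). Kif20a, a kinesin of the central spindle, fell by 1.89 on the log2 scale, and Birc5, the survivin subunit of the passenger complex, by 1.84. Bub3 again moved least (-0.61 ± 0.10). The difference between the genotypes' declines was tested as a difference of the cKO effects at E15.5 and E13.5. By limma it called 0 of 45 members, with 2 higher and 7 lower before adjustment (p under 0.05; edgeR 1 lower, DESeq2 1 lower), against 6.21% of all genes called.

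From E15.5 to E17.5 the members went in opposite directions under the 2 labels. In the libraries labelled WT, 41 of 45 fell further, with a median of -0.78 and 14.6% of all genes called lower. In those labelled cKO, 39 of 45 rose, with a median of 0.59 and 15.4% of all genes called higher. Birc5 read 1219, 1525 and 1337 at E15.5 and 636, 575 and 512 at E17.5 in WT (-1.24 ± 0.13, limma adjusted p = 1.1e-06). Under the cKO label it read 1189, 1284 and 1219 and then 1878, 1639 and 1469 (0.43 ± 0.13, limma adjusted p = 0.016). The Birc5 libraries of the 2 days did not overlap under either label, and they moved in opposite directions. Without overlap, 22.3% of all genes tested fell under the WT label and 26.6% rose under the cKO label. Library C of both E15.5 groups was close to a sum of A and B, so C may not be a separate sample here. Ccna2, the cyclin A that acts in S phase and G2, rose most among the lead genes in cKO, from 3362, 3110 and 3279 to 6084, 7485 and 6405 (1.03 ± 0.11, limma adjusted p = 6.6e-07). The 4 WT members that did not pass were Cenpf (-0.56 ± 0.22), Cdc25b (-0.22 ± 0.10), Bub3 (-0.06 ± 0.10) and Pttg1 (0.11 ± 0.24). The 6 cKO members that did not pass were Mki67, Cenpe, Aspm, Ncapd2, Kif20b and Cenpf, at 0.14 to 0.31. Without the 5 C libraries 37 members fell in WT, against 6.99% of all genes, and 30 rose in cKO, against 8.44%, and leaving out B and C of the E15.5 WT libraries left 33 called lower in WT, against 3.49% of all genes. That fit leaves 1 WT library at E15.5, which is assumed to vary like the other groups. Libraries B and C held 9422 and 4623 summed reads of 3 epidermis markers against 4.88 in A, and 111505 and 54335 of 5 meninges markers against 379 in A. Other markers moved over the same step. Under the WT label 7 of 9 radial glia and 4 of 5 intermediate progenitor markers fell and 9 of 11 neuron markers rose. Under the cKO label 7 of 9 radial glia, 2 of 5 intermediate progenitor and 4 of 5 microglia markers rose, while 5 of 11 neuron and 5 of 6 red blood cell markers fell. Their part in the members' changes was not tested.

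**Figure D2:**
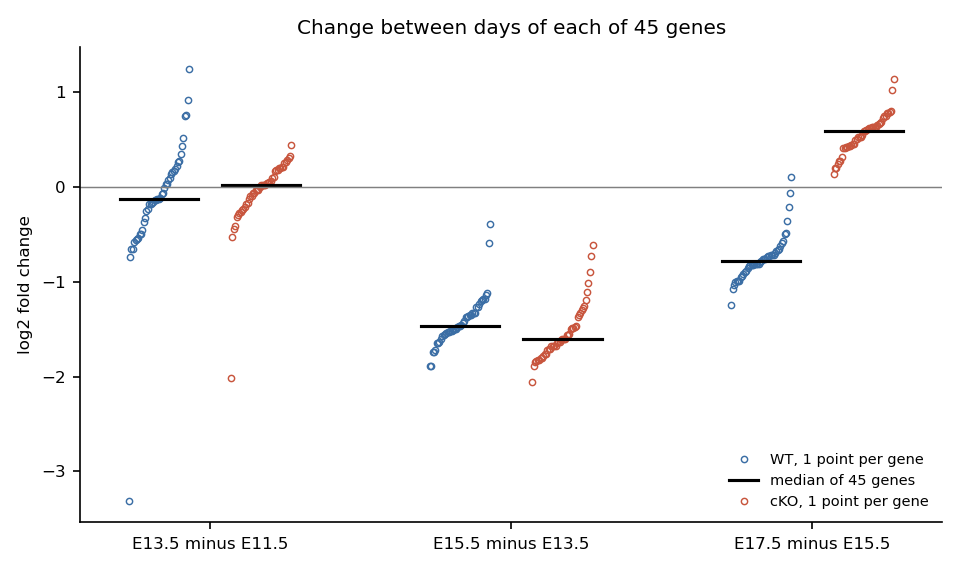
log2 fold change between successive days (y axis) for each of the 45 genes in WT (blue) and cKO (red), with the median as a black bar and each column of points sorted by value. The medians at E17.5 minus E15.5 are -0.78 in WT and 0.59 in cKO, and the lone low points at the first step are Pttg1.

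At E17.5 all 45 members were therefore higher in the libraries labelled cKO than in those labelled WT, where 18.6% of all genes tested were called higher. The median log2 fold change was 1.27, against -0.04 over all genes. The ratio of group means ran from 1.33 for Bub3 to 2.92 for Ccnb1, with a median of 2.41. All 3 libraries of one label lay above all 3 of the other for 45 of 45 members, as they did for 25.2% of all genes tested. Without the 5 C libraries, none of which is from E17.5, 44 members were called higher, against 15.6% of all genes, and Mki67 was not. After each library's values were centred on a trend in transcript length, 45 were called, against 44.0% of all genes in either direction.

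The cyclins, their kinase and the phosphatases held 7 of the members. Ccnb1, the cyclin B that starts mitosis, read 1422, 1179 and 1242 under the WT label and 4290, 3844 and 3083 under the cKO label (1.54 ± 0.11, limma adjusted p = 2.9e-09). Cdk1, its kinase, read 1494, 1294 and 1175 against 4286, 3773 and 3046 (1.48 ± 0.13). Even the lowest library labelled cKO held more than 2 times the highest labelled WT for both genes. The other B-type cyclin Ccnb2 and the Cdk1-binding subunit Cks2 were higher by 1.34 each. Cdc25c, a phosphatase that activates Cdk1, was higher by 1.44. Cdc25b, the phosphatase that acts first on Cdk1 at centrosomes, differed less, at 1439, 1361 and 1389 against 2092, 2007 and 1723 (0.47 ± 0.10, limma adjusted p = 0.0011).

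Among the mitotic kinases, Plk1 read 915, 823 and 660 against 2173, 2194 and 2225 (1.47 ± 0.13, limma adjusted p = 2.8e-08). The 3 Plk1 libraries labelled cKO lay closer together than those labelled WT. Nek2, which splits the centrosomes, was higher by 1.24 ± 0.09, and Aurka, the Aurora kinase of the spindle poles, by 1.22 ± 0.11.

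Spindle checkpoint genes split into 4 with a large difference and 1 with a small one. Bub1 and Ttk, the kinases that start the checkpoint signal, were higher by 1.43 and 1.35. Bub1b, the BubR1 subunit that binds Cdc20, read 1945, 1654 and 1692 against 3942, 4166 and 3667 (1.16 ± 0.09, limma adjusted p = 6.8e-09), and Mad2l1, its partner in the same inhibitor, was higher by 1.08. Bub3 read 3909, 3579 and 3404 against 5336, 4635 and 4502 (0.41 ± 0.10, limma adjusted p = 0.0027). Its groups did not overlap either, but its WT level had hardly moved since E15.5.

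The anaphase genes were higher by similar amounts. Cdc20, which activates the anaphase-promoting complex, read 1339, 1082 and 885 against 3255, 2848 and 2811 (1.45 ± 0.14, limma adjusted p = 6.9e-08). Ube2c read 1208, 960 and 911 against 3038, 2661 and 2510 (1.42 ± 0.15). Both genes were more than 2 times as high in every library labelled cKO as in the highest labelled WT. Pttg1, which encodes securin, the protein that holds separase back, read 195, 84 and 123 against 437, 335 and 238 (1.36 ± 0.24).

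The chromosomal passenger complex, which corrects faulty kinetochore attachments, contained the member with the largest difference. Aurkb, its kinase, read 971, 746 and 628 against 2494, 2289 and 2052 (1.56 ± 0.14, limma adjusted p = 3.9e-08). Birc5 was higher by 1.53 ± 0.13 and the scaffold Incenp by 1.04 ± 0.10.

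At the centromere, Cenpa, the histone H3 variant that marks it, read 1149, 1029 and 943 against 3211, 2846 and 2523 (1.46 ± 0.12, limma adjusted p = 6.1e-09). Ndc80 and Nuf2, which form the microtubule-binding complex of the kinetochore, were higher by 1.27 and 1.36. Cenpf read 2419, 2181 and 2595 against 3512, 4890 and 4191 (0.80 ± 0.22, limma adjusted p = 0.0056), and Cenpe was higher by 0.76. The last 2 genes differed less and varied more between libraries than the rest of the role.

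Of the 8 spindle genes, Nusap1, which bundles spindle microtubules, differed most (1.46 ± 0.09). Kif11, the kinesin that pushes the poles apart, read 2843, 2586 and 2468 against 6634, 6766 and 5818 (1.28 ± 0.10, limma adjusted p = 3.5e-09). Tpx2, the activator of Aurka on the spindle, was higher by 1.20 ± 0.08. Aspm, the spindle-pole protein whose human gene is mutated in primary microcephaly, read 1477, 1315 and 1585 against 2378, 3228 and 2708 (0.92 ± 0.22, limma adjusted p = 0.0022). The spread of Aspm between libraries labelled cKO was wider than that of Kif11 or Tpx2.

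The 5 cytokinesis genes were higher by 1.14 to 1.45. Anln, the anillin of the contractile ring, read 738, 614 and 631 against 1685, 1665 and 1324 (1.23 ± 0.13, limma adjusted p = 3.9e-07), and Ect2, which activates RhoA at the cleavage plane, was higher by 1.14 ± 0.10. Among the genes of chromosome structure the range was wider. Top2a, the topoisomerase that untangles sister chromatids, read 7229, 6408 and 6825 against 14065, 16855 and 14114 (1.13 ± 0.14, limma adjusted p = 1.9e-06). The condensin subunits differed among themselves, with Ncapg at 1.27 ± 0.12, Smc4 at 1.21, Smc2 at 0.81 ± 0.10 and Ncapd2 at 0.45 ± 0.11. Mki67 read 5845, 4827 and 6272 against 7149, 10998 and 9785 (0.71 ± 0.25, limma adjusted p = 0.028). Its lowest library labelled cKO was close to the highest labelled WT.

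**Figure D3:**
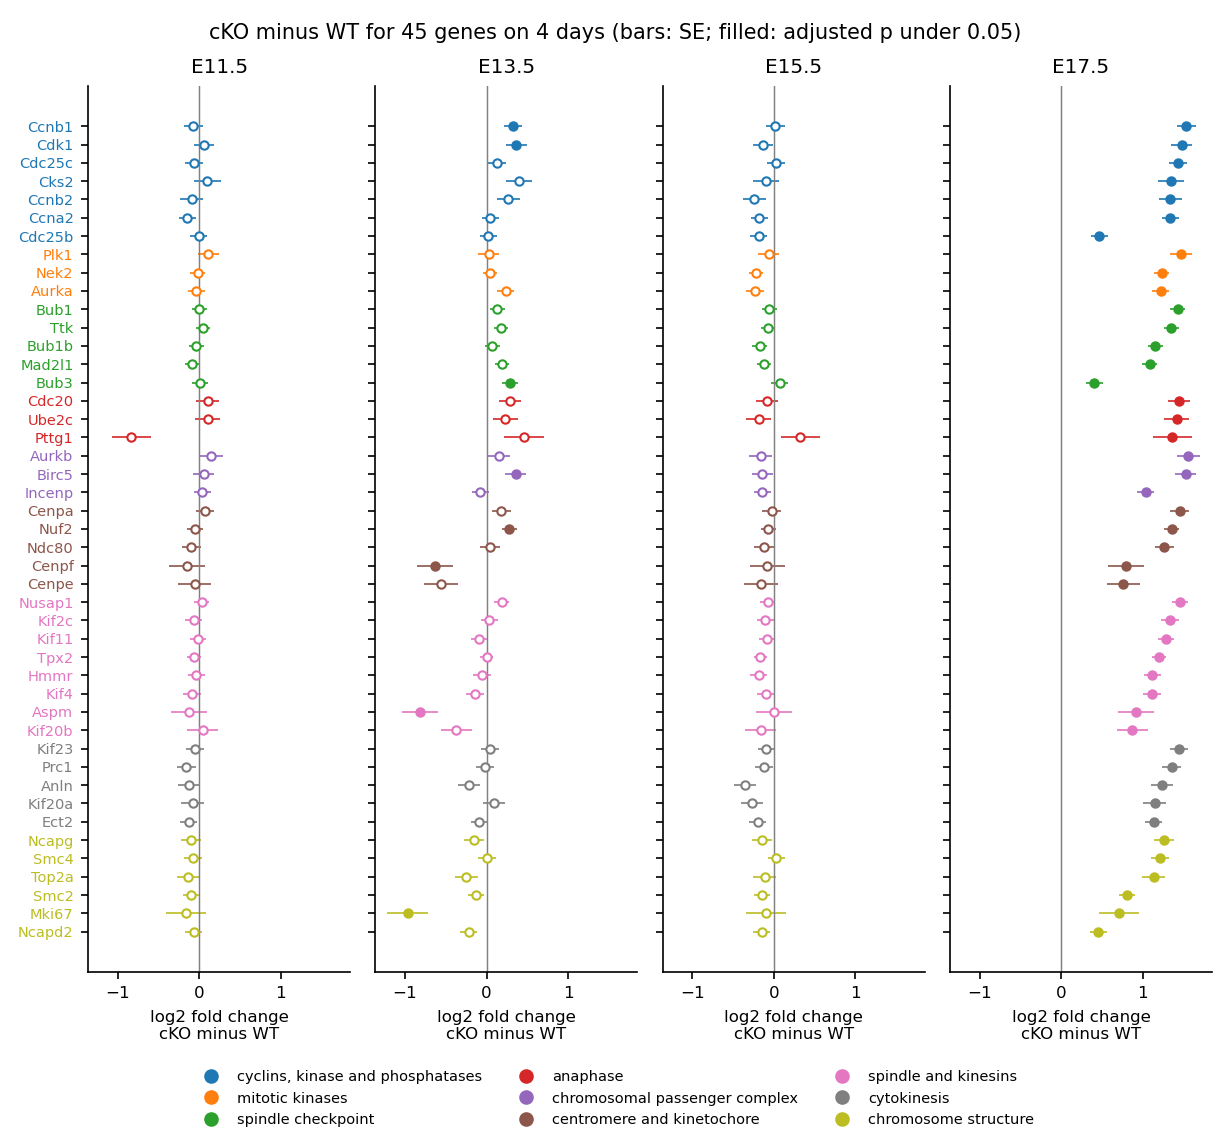
log2 fold change of cKO minus WT (x axis) for each of the 45 genes (rows, coloured by role) on the 4 embryonic days, with SE bars and filled points where the limma adjusted p is under 0.05. Filled points number 0, 8, 0 and 45 from left to right, and at E17.5, where the groups are as labelled, they run from 0.41 for Bub3 to 1.56 for Aurkb.

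**Figure D4:**
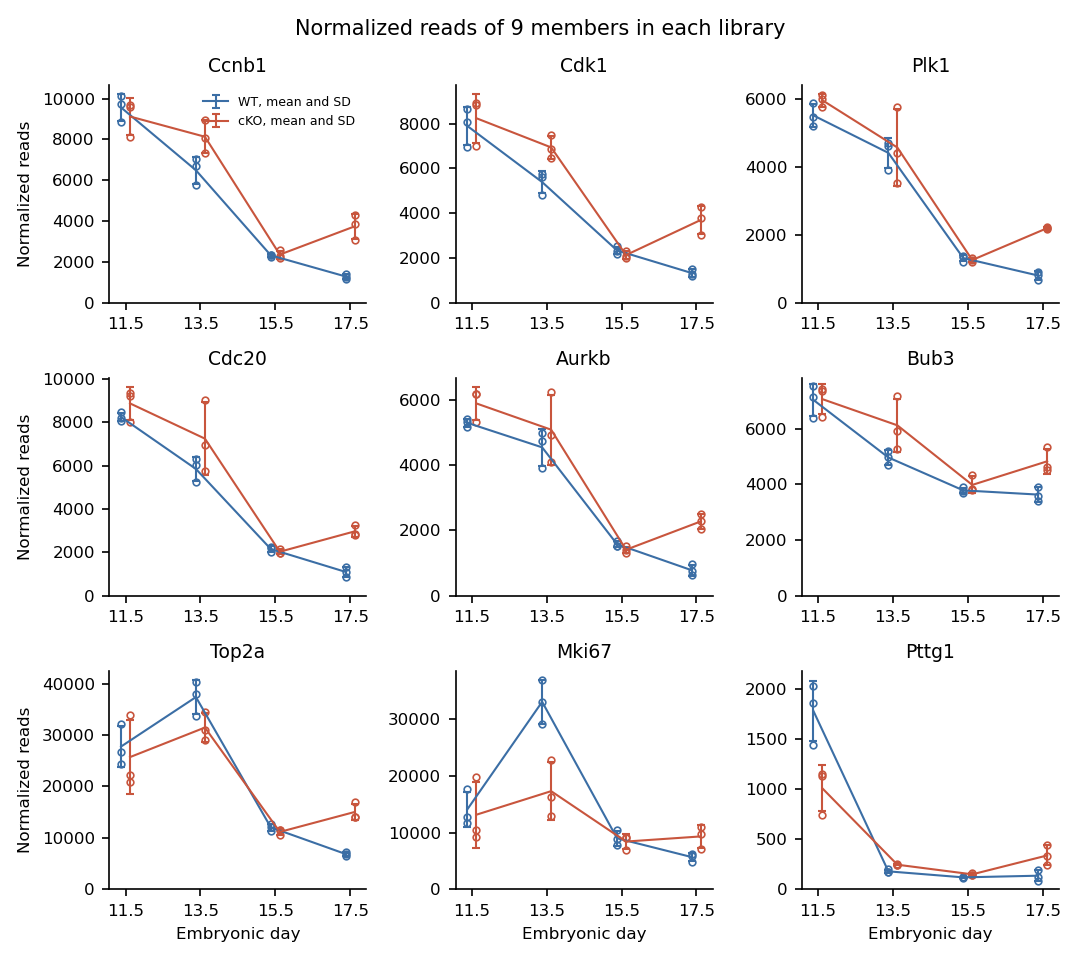
Normalized reads (y axis, from 0) of 9 members by embryonic day (x axis) in every library, as open circles, with group means and SD bars in WT (blue) and cKO (red). The lines meet at E15.5 and part at E17.5 for most genes, and Pttg1 drops after E11.5. In WT at E17.5, Bub3 lies least below its E11.5 level among the 9.

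Markers of several cell types differed between the E17.5 labels in the same comparison. All 9 radial glia markers (Pax6, Sox2, Hes1, Hes5, Vim, Nes, Slc1a3, Fabp7 and Prom1) were higher under the cKO label, with a median of 1.77, and their summed reads were 37553 to 41008 against 127749 to 144466. All 5 markers of intermediate progenitors were higher as well (median 1.17, sums of 13133 to 18591 against 27697 to 36842). Of 11 markers of postmitotic neurons 9 were lower (median -1.22, sums of 490142 to 536578 against 219119 to 262993). Red blood cell markers were lower for 4 of 6 (sums of 10593 to 22458 against 4171 to 4601), microglia markers were higher for 5 of 5 (sums of 1247 to 1425 against 2055 to 2247), and no marker of endothelium, meninges, epidermis or ventral forebrain was called. In bulk tissue, fewer cells of a type and less RNA per cell cannot be told apart, and the part of these markers in the result was not tested. The 45 members summed to 69614 to 78660 reads under the WT label and 144007 to 165349 under the cKO label. Relative to E13.5 in the same genotype, the members' median level at E17.5 was 20.8% under the WT label and 49.8% under the cKO label.

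The cKO effect itself differed between days. A joint limma test over the 4 days called 44 of 45 members, where 32.2% of all genes were called, and the exception was Bub3 (adjusted p = 0.088). Between E15.5 and E17.5 the effect rose for 43 of 45 members, where 13.9% of all genes were called higher, with a median difference of 1.41. It was largest for Aurkb (1.73 ± 0.20, limma adjusted p = 3.6e-06) and did not pass for Mki67 (0.80 ± 0.35) and Bub3 (0.34 ± 0.14). Between E11.5 and E13.5 limma called 0 of 45, with 4 higher and 2 lower at an unadjusted p under 0.05 (edgeR 0, DESeq2 1), against 0.285% of all genes. Averaged over the 4 days, 35 members were higher in cKO, where 16.2% of all genes were called higher, at a median of 0.27. This average mixes days whose effects differ, and 29 were called higher without the 5 C libraries, against 7.72% of all genes.

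At E11.5 no member was called between WT and cKO, where 3.13% of all genes were called. At an unadjusted limma p under 0.05 there was 1 lower member, edgeR called 0 and DESeq2 called 1 lower. The median was -0.06, and the 95% intervals of the members ran from -1.34 for Pttg1 at the lowest to 0.45 for Aurkb at the highest. Aurkb stood at 5303, 5415 and 5157 in WT, against 6161, 5314 and 6184 in cKO. Library B of cKO lay with the WT libraries for Aurkb, and the groups overlapped. Markers of 2 cell types were lower in cKO at E11.5. They were 5 of 5 of ventral forebrain (sums of 5017 to 6259 in WT against 41.9 to 198 in cKO) and 5 of 11 of postmitotic neurons (68169 to 82997 against 51674 to 52158). No marker of the other cell types was called, and the part of these markers in the members' values was not tested.

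At E15.5 limma again called 0 of 45, with 3 lower at an unadjusted p under 0.05 and 0 by edgeR or DESeq2, where 2.52% of all genes were called. The members' median was -0.12, against 0.04 over all genes, and 39 of 45 were below 0. In 17 of 45 all cKO libraries lay below all WT libraries, against 8.09% of all genes tested, but library C of both E15.5 groups was close to such a sum, so C may not be a separate sample in this count. In this comparison 2 of 5 meninges and 2 of 3 epidermis markers were called lower in cKO, through WT libraries B and C, and their part in the members' values was not tested. Anln had the lowest value, at 1105, 1460 and 1279 against 1031, 980 and 985 (-0.35 ± 0.13, limma adjusted p = 0.25). Nek2 read 799, 810 and 841 against 709, 706 and 691 (-0.22 ± 0.09). The 95% intervals of the 45 members lay between -0.63 and 0.83.

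At E13.5 few members were called, at shares near or below those of all genes. Limma called 5 higher in cKO, where 9.79% of all genes were called higher, and 3 lower, where 12.5% were. The higher ones were Cdk1 (0.37 ± 0.13, limma adjusted p = 0.044), Birc5 (0.36 ± 0.13), Ccnb1 (0.33 ± 0.11), Bub3 (0.29 ± 0.10) and Nuf2 (0.28 ± 0.09), the last named after its value was seen. Ccnb1 stood at 6685, 7027 and 5750 in WT, against 8970, 7345 and 8074 in cKO. Mki67, the lowest, stood at 33146, 36935 and 29238 in WT, against 12867, 22858 and 16208 in cKO (-0.97 ± 0.25, limma adjusted p = 0.011). Its cKO libraries spread widely but all lay below the WT libraries, as they did for 18.7% of all genes tested. Aspm differed by -0.82 ± 0.22 and Cenpf by -0.63 ± 0.22. None of the 8 was called without the 5 C libraries, where 2.84% of all genes were called in either direction, when 5 had a higher and 4 a lower value with limma p under 0.05 before adjustment, and leaving out library A of cKO also left 0 (8.81% of all genes called). Without cKO library B 12 were called, against 33.7% of all genes. Without WT library A or C or cKO library C 2 were called, all lower, against 17.5%, 9.53% and 13.1% of all genes. Without WT library B 4 were called, against 16.6%.

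Markers also differed at E13.5, where 3 of 5 markers of intermediate progenitors (sums of 34429 to 37269 in WT against 24606 to 26530 in cKO), 5 of 11 of postmitotic neurons (109873 to 173496 against 76501 to 86166) and 5 of 5 of ventral forebrain (751 to 4408 against 46.1 to 444) were lower in cKO. So were 2 of 9 radial glia and 1 of 6 red blood cell markers. Without the 5 C libraries 0 of 5 intermediate progenitor, 2 of 11 neuron, 5 of 5 ventral forebrain, 0 of 9 radial glia and 0 of 6 red blood cell markers were called. Their part in the members' differences was not tested.

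The E13.5 differences of the members followed transcript length. The 5 members with a longest annotated transcript of at least 6000 bases (Cenpf, Mki67, Aspm, Cenpe and Mad2l1) had a median of -0.63, and the other 40 had 0.04. Across the 45 genes the Spearman correlation of log2 fold change with transcript length was -0.70, a description over genes that share the same 6 libraries. Over all genes tested, the longest 10%, from 6563 bases, had a median of -0.51 and the shortest 10%, up to 1090 bases, 0.25. Within the cKO group at E13.5 library A had short transcripts high (a difference between the longest and shortest 10% of -0.46 on the log2 scale) and library B had long ones high (0.45). After centring on length, Mki67 alone of the lower genes stayed called, 4 members were called higher, against 18.9% of all genes called in either direction, and Cenpf was at 0.036.

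The earlier step in WT, from E11.5 to E13.5, showed the opposite order. Here 8 members rose and 13 fell, where 29.6% of all genes were called higher and 25.7% lower. Mki67 rose from 17679, 11757 and 12796 (1.25 ± 0.25, limma adjusted p = 0.00037), Aspm by 0.91 ± 0.22, Cenpe by 0.76 ± 0.21 and Cenpf by 0.75 ± 0.22. Pttg1 fell by 3.31 on the log2 scale, Cks2 by 0.73, Ccnb2 by 0.66 and Ube2c by 0.65. Ccnb2 read 3848, 4672 and 4341 and then 2887, 2810 and 2446, and its days did not overlap. Over this step 30.5% of all genes tested fell without overlap. The correlation with transcript length was 0.73 over the 45 genes, and the all-gene medians were 0.72 in the longest 10% and -0.47 in the shortest 10%. After centring on length 1 member rose (Mki67) and 13 fell, against 50.8% of all genes called in either direction, Cenpf was at -0.17, and Smc2, at 0.07 before, was called at -0.25. Without the 5 C libraries 3 rose and 12 fell, where 22.5% of all genes rose and 16.9% fell.

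In cKO 5 members were called lower over the same step (Pttg1, Ube2c, Cks2, Plk1 and Mad2l1), a share near the 9.62% of all genes called lower. Limma called 0 members higher (4 higher at an unadjusted limma p under 0.05), where 15.5% of all genes were called higher. Pttg1 fell by 2.01 on the log2 scale, Ube2c by 0.52, Cks2 by 0.44 and Plk1 by 0.41. The count changed with each of the 6 cKO libraries left out in turn. Without library B of cKO at E11.5, 22 members were called, 12 of them higher, against 42.7% of all genes called, and without the 5 C libraries 1 fell (Pttg1), where 0.881% of all genes fell and 3.38% rose. Leaving out cKO library A or C at E11.5 also left 1, against 12.4% and 12.5% of all genes, as did B or C at E13.5, against 12.2% and 14.6%. Leaving out A at E13.5 gave 10, against 39.4%. Library B of cKO at E11.5 read Mki67 at 19846, against 9212 and 10362 in A and C, and Cks2 at 1897, against 2754 and 2812. The longest 10% of all genes stood 0.72 above the shortest 10% in it, relative to its group.

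**Figure D5:**
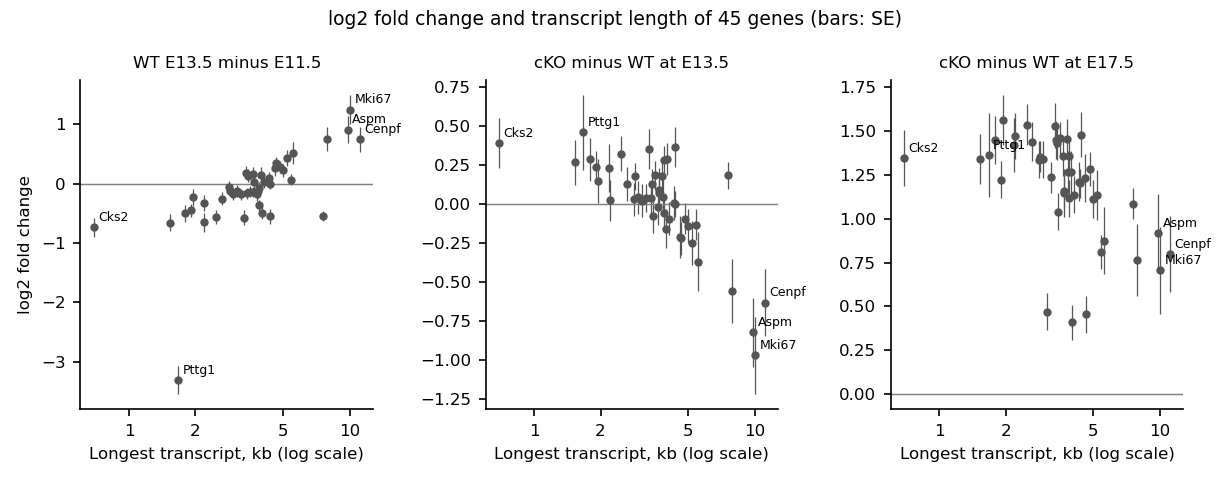
log2 fold change with SE bars (y axis) against the longest annotated transcript in kb (x axis, log scale) for the 45 genes in 3 comparisons. Long genes such as Mki67, Aspm and Cenpf lie highest at WT E13.5 minus E11.5 and lowest at cKO minus WT at E13.5, whereas at E17.5 all points lie above 0.

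At E17.5 length went with the size of the difference but not with its sign. The 5 long members had a median of 0.80 and the other 40 a median of 1.31 (Spearman -0.65 over the 45 genes), and over all genes the longest 10% had -0.32 and the shortest 10% 0.06.

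Pttg1 had a course of its own. At E11.5 the WT values were 1447, 2033 and 1864 and the cKO values 1150, 742 and 1130 (-0.84 ± 0.24, limma adjusted p = 0.068). By E13.5 its values were 166, 169 and 197 in WT (-3.31 ± 0.24 against E11.5, with a limma adjusted p of 1.2e-08) and 245, 237 and 250 in cKO (-2.01 ± 0.24, limma adjusted p = 8.5e-06). No other member fell by more than 0.73 on the log2 scale over this step in either genotype. By E15.5 its values had reached 110, 125 and 116 in WT, with 138, 163 and 141 in cKO. In WT 44 members were lowest at E17.5, and Pttg1 was lowest at E15.5. Of the 45, 27 were highest at E11.5 and 18 at E13.5 in WT. In cKO 21 were highest at E11.5 and 24 at E13.5, and all 45 were lowest at E15.5.

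Regulators of these genes differed between the E17.5 labels at different sizes. Foxm1, the forkhead factor that activates G2 genes, read 2057, 1772 and 1622 under the WT label at E17.5 and 3868, 4475 and 3984 under the cKO label (1.18 ± 0.11, limma adjusted p = 4.3e-08). Mybl2, the B-Myb subunit that joins the MuvB complex in S phase, was higher by 1.21 ± 0.13. Lin9 and Lin54, core MuvB subunits of which Lin54 binds the CHR, were higher by 0.45 ± 0.08 and 0.43 ± 0.10. From E13.5 to E15.5 in WT, Foxm1 fell by 1.65, Mybl2 by 1.92, Lin54 by 0.92 and Lin9 by 0.34. From E15.5 to E17.5 Foxm1 fell by 0.79 and Mybl2 by 0.74 under the WT label and rose by 0.56 and 0.58 under the cKO label. Over that step Lin9 fell under the WT label (-0.22) and did not pass under the cKO label (0.15), whereas Lin54 did not pass under the WT label (-0.08) and rose under the cKO label (0.31). Differences in Foxm1, Mybl2, Lin9 and Lin54 did not pass on any day before E17.5.

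A further 77 genes of G2 and mitosis were tested in the same fit. At E17.5 65 of 77 were higher under the cKO label, against 18.6% of all genes, and 0 lower, with a median of 1.17. They were led by the phosphatase gene Cdkn3 (1.60 ± 0.22) and the centromere gene Cenpi (1.58 ± 0.10). In WT 74 fell from E13.5 to E15.5 and 59 from E15.5 to E17.5, against 22.8% and 14.6% of all genes. In cKO 50 rose over the last step, against 15.4% of all genes. At E13.5 9 were higher in cKO, with Cks1b at 0.55 and Trip13 at 0.48, and 4 lower, with Ncapd3 at -0.63 and Kif14 at -0.62, where all genes had 9.79% called higher and 12.5% called lower. Limma called 0 of the 77 at E13.5 once the 5 C libraries were left out, with 9 higher and 5 lower before adjustment (p under 0.05). Of 41 genes of DNA replication, which act in S phase, 40 were higher at E17.5 (median 0.86), against 18.6% of all genes. At E13.5 18 of the 41 were higher in cKO, against 9.79% of all genes, and none lower. Without the 5 C libraries 1 was called, against 2.84% of all genes in either direction.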

How the data were processed

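PolyA-selected RNA from cortical ventricular zone tissue was sequenced with a stranded TruSeq kit on an Illumina HiSeq instrument, per the labels' protocols. The authors deposited 1 table, in which the signal of a gene in a library is its normalized reads. STAR 2.5.0a, cutadapt 1.6, DESeq 1.22.1 and HTSeq 0.5.3 are named, with mm10 (GRCm38), per the submitters' processing notes. The sources used here do not give their roles, the annotation, the strand setting or the handling of multiply matching reads, so genes with near-identical copies or overlapping neighbours may share reads. All values (100% within 0.01) were whole multiples of 1 read, and whole reads were recovered for the alternatives. Among the identifiers, 22411 matched GENCODE M21.

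Values were fitted with limma 3.58.1 (R 4.3.3) on log2(value + 1), with a variance trend and 1 mean for each of 8 groups. Genes with 10 or more in at least 3 libraries were tested (17518), with two-sided p adjusted by Benjamini-Hochberg and called under 0.05. The + 1 understates changes of genes at low values. The fit was tested on simulated data first. Comparisons were cKO minus WT per day and averaged, successive days within genotype, and differences between these effects.

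The 45 genes, the other lists and the tests were chosen with earlier results of these data known. Genes named were 26 lead genes fixed by role, the 4 highest and 4 lowest called members per comparison, Prdm16, Foxm1, Mybl2, Lin9, Lin54, and the 2 highest and lowest called genes of the other G2 and mitosis list. Further members are named to describe their roles. Alternatives were TMM factors, a pseudocount of 0.5 or 5, filtering by a mean of 50 or not at all, edgeR 4.0.16 and DESeq2 1.42.0 on recovered reads, the letter as a block, each library left out, and leaving out the 5 C libraries, or B and C of WT at E15.5. Centring each library on a lowess trend (span 0.5) in the longest annotated transcript was added after seeing the data. EdgeR's quasi-likelihood test called 465, 4087, 767 and 7088 genes between genotypes from E11.5 to E17.5, against 548, 3911, 441 and 7081 by limma. Median squared residuals of C from a weighted sum of A and B were 0.569 to 0.879 of counting noise in 5 groups and 2.18 to 3.67 in the other 3, where counting noise alone gives 0.455.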

Additional observations from a re-analysis of the deposited data

Results flagged for a closer look

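The cKO effect differed between embryonic days for most members, by limma tests of the difference itself. The joint test over the 4 days called 44 members, against 32.2% of all genes. The step from E15.5 to E17.5 called 43, all with a larger effect at E17.5, against 13.9% of all genes called higher. At E17.5 Prdm16 goes against the labels. On the log2 scale the E17.5 effect exceeded the E15.5 effect by 1.52 for Ccnb1, 1.61 for Cdk1, 1.51 for Ccna2 and 0.65 for Cdc25b. For the mitotic kinases this difference was 1.53 for Plk1 and 1.45 for both Aurka and Nek2. Checkpoint and anaphase genes had differences of 1.33 for Bub1b, 1.2 for Mad2l1, 1.53 for Cdc20 and 1.6 for Ube2c. In the passenger complex the values were 1.73 for Aurkb and 1.67 for Birc5, and at the centromere and kinetochore 1.48 for Cenpa, 0.88 for Cenpf and 1.39 for Ndc80. Spindle and cytokinesis genes had 1.37 for both Kif11 and Tpx2, 0.92 for Aspm, 1.58 for Anln and 1.33 for Ect2. For chromosome structure the differences were 1.25 for Top2a, 0.95 for Smc2 and 1.41 for Ncapg.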

How the results depend on the processing

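The counts of members called at E17.5, over each step after E13.5 and for the difference between the E17.5 and E15.5 effects stayed within 1.5 times the main count under every alternative run. Of 330 alternative counts 304 did so. At E11.5 DESeq2 and the length-centred fit each called 1 member (Pttg1 in the latter), and leaving out single libraries gave 0 to 1. At E13.5 the 8 calls became 3, all lower, with no filter, 5 after length centring and 0 without the 5 C libraries, and 0 to 12 when single libraries were left out. In cKO from E11.5 to E13.5 the 5 calls became 1 without the 5 C libraries, 3 after length centring, and 1 to 22 when single libraries were left out. For the difference between effects DESeq2 called 1 member from E11.5 to E13.5 (0 to 1 without single libraries), and from E13.5 to E15.5 edgeR and DESeq2 called 1 each (0 to 4 without single libraries). Fewer libraries leave less power. At E13.5 and in cKO from E11.5 to E13.5, leaving out single libraries moved the counts both up and down. The cause of these shifts was not tested.

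Of 6100 alternative values for named members, 5926 kept their call status, 126 lost the call and 42 gained it. A change of direction was counted only where the value was called in the main or the alternative fit. The 5926 may therefore hold uncalled values that changed direction. The counted reversals numbered 6, all 6 under length centring. These were Cenpf at E13.5 (0.036 for cKO minus WT), averaged over days Cenpf (0.29), Aspm (0.27) and Mki67 (0.15), and from E11.5 to E13.5 in WT Cenpf (-0.17) and Smc2 (-0.25). TMM factors moved the median of all genes by under 0.05 (log2) in each comparison.

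Deviations of same-lettered WT and cKO libraries correlated at -0.43 to 0.11, above 0.1 in 1 of 12 pairs. Of the 12 WT libraries, 4 correlated best with their own letter. With 3 libraries per group, and C close to a sum of A and B in 5 groups, these values cannot show whether a letter marks a pair. With the letter as a replicate block the members called were 0, 6, 0 and 45 from E11.5 to E17.5. The shares of all genes called in either direction were 2.99%, 21.7%, 2.71% and 40.1%.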
